A study of Mus musculus with 15 samples.

Results

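The genes described here encode small leucine-rich proteoglycans and proteins of elastic fibres, both parts of the extracellular matrix of the lung. The list held 10 genes, namely Lum, Dcn, Bgn, Ogn, Fmod, Eln, Fbln5, Fbn1, Mfap4 and Mfap5. A gene was measured through a probe set whose annotation names it alone, and where there were several, through the one with the highest mean log2 intensity over 15 arrays. This gave 9 of the 10 genes, among 18193 genes in all; Fbn1 was not analysed here.

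Small leucine-rich proteoglycans are secreted proteins whose horseshoe-shaped core binds collagen and steers how collagen fibrils assemble, and several carry chondroitin, dermatan or keratan sulfate chains. Decorin and biglycan also bind TGF-beta. Elastic fibres, which let alveoli and vessels recoil, are built from tropoelastin laid down on a scaffold of fibrillin microfibrils, with fibulins and microfibril-associated proteins guiding assembly and lysyl oxidases cross-linking the product. In the lung both sets of genes are known mainly from fibroblasts, smooth muscle and mesothelium. In whole tissue, fewer cells of a type and less RNA per cell cannot be told apart.

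The RNA came from mice of mixed background, in 5 groups of 3 arrays each. At 12 months the groups were wildtype lung and lung tumours of mice whose genotype includes Smad4d/d, each tumour sample being part of 1 tumour. At 7 months they were wildtype lung, lung of mice with that same mutant genotype, and lung of mutant mice without Smad4d/d. The allele that both mutant genotypes share enters every difference from wildtype below, so none of these differences is one of Smad4 alone. Smad4 encodes the partner that receptor-activated SMAD proteins share in TGF-beta and BMP signalling. The series design sets the 12-month arrays to find genes that differ between tumour and lung, and the 7-month arrays to find changes that come before tumours. The sources used here do not give what drives the recombinase or how many animals a 7-month array holds. The p-values thus measure the spread between these samples, which may be technical in part.

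Median intensity lay between 90.9 and 99.5 on the 15 arrays, and log2 values of arrays in 1 group correlated at 0.982 to 0.996 over genes. Smad4 itself read 2965 to 3688 in the tumours and 2664 to 2924 in wildtype at 12 months. At 7 months it read 3166 to 3364 in the lungs labelled Smad4d/d, 2926 to 2944 in mutant lungs without that label and 3163 to 3304 in wildtype. Smad4 RNA was thus not lower where the label gives its deletion, so the genotype is taken from the labels alone throughout. The 18S ribosomal control probe sets averaged 1121 to 2036 on the tumour arrays and 5492 to 8084 on all lung arrays. At 12 months, arrays 1 and 3 of the wildtype read Xist, the RNA of the inactive X, above the Y-linked Eif2s3y, while wildtype array 2 and the 3 tumours read the reverse. At 7 months, 8 of 9 arrays read both genes above 500, so each of these appears to hold RNA of both sexes rather than of 1 animal. The exception was wildtype array 3, with Xist at 48.1 and Eif2s3y at 1504.

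RefSeq promoter windows of assembly GRCm38.p6 were at hand for 4 of the 9 genes. Those of Ogn and Fbln5 are shown because both genes were lower in the tumours, and that of Bgn because its level stayed within the spread between arrays. Each is the run of 250 bases before the annotated start, written 5′ to 3′ on the strand of the gene. Capitals mark matches, on either strand, to CAGAC (the core of a SMAD-binding element), TATAAA (the TATA box), CCAAT (the CCAAT box) and GGGCGG (the GC box).
Ogn, plus strand of chr13:49607765-49608014: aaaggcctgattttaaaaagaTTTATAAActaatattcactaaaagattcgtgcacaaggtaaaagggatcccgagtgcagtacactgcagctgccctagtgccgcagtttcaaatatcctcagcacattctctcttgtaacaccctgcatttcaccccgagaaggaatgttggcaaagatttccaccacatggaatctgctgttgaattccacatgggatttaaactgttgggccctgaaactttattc
Fbln5, minus strand of chr12:101819120-101819369: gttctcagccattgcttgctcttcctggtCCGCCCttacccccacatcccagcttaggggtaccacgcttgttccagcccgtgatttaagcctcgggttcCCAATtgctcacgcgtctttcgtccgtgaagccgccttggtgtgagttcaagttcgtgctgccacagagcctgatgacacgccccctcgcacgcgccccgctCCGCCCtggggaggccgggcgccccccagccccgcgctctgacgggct
Bgn, plus strand of chrX:73483351-73483600: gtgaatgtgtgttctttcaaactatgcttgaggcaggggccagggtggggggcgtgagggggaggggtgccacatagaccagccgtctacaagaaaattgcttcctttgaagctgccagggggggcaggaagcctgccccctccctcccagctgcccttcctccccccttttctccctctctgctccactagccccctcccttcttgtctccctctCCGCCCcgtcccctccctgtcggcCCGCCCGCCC

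The Ogn window has 42.0% G or C and holds 2 overlapping TATAAA matches on opposite strands, far upstream of the start. The Fbln5 window shown has 65.2% G or C, with 1 CCAAT and 2 GC-box matches. A further RefSeq window of Fbln5, at chr12:101818485-101818734, holds 2 CAGAC matches, as does that of Fmod at chr1:134037004-134037253. The Bgn window holds 3 GC-box matches, of which the pair nearest the start overlap. Over 32851 windows of this length, 42.2% hold CAGAC, 12.4% TATAAA, 33.8% CCAAT and 32.7% GGGCGG, so each match is common and is given as a description only.

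In the tumours at 12 months, lumican and decorin rose while osteoglycin, fibulin 5 and Mfap4 fell. Biglycan, fibromodulin, elastin and Mfap5 did not pass the test. In all, 5 of 9 genes were called at an adjusted p under 0.05 (limma on log2(intensity + 16), Benjamini-Hochberg over all 18193 genes), 2 higher and 3 lower. Of all genes, 15.2% were called in this comparison, 9.23% higher and 6.02% lower. The median size of the difference was 0.84 on the log2 scale for the 9 genes and 0.19 for all genes tested. The 3 tumour values lay wholly above or below the 3 wildtype values for 6 of the 9 genes, against 37.5% of all genes. These baselines are not matched in intensity. The dimmest of the 9 genes, Fmod, averaged 134 in wildtype, and median array intensity was at most 99.5. Adding 16 shrinks the differences of dim genes. With the dimmer 50% of genes left out, 6 of the 9 were called, and 1314 genes higher and 1215 lower of the smaller set. The same mismatch holds in later comparisons of the 9 genes with all genes.

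Lum encodes lumican, a keratan sulfate proteoglycan that limits the width of collagen fibrils. Its intensity was 293, 395 and 413 in the wildtype lungs and 1301, 1729 and 3194 in the tumours. The lowest tumour value was thus well above the highest wildtype one, although the tumours differed among themselves. Lum rose 5.14-fold, from 367 ± 65.1 to 2075 ± 993 (SD, n = 3), a log2 difference of 2.36 ± 0.33 (SE; adjusted p = 0.0107, limma). Among the 5 groups, tumours were highest, and the other 4 overlapped each neighbour in the order of their means.

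Dcn encodes decorin, which coats collagen fibrils. It read 3547, 3737 and 3408 in wildtype and 5538, 6384 and 7342 in the tumours, with no overlap. Dcn rose 1.79-fold, a log2 difference of 0.84 ± 0.12 (adjusted p = 0.0110, limma). On this probe set the tumours were the one group to stand apart, since every lung array of either age lay between 3277 and 4547. A second, dimmer Dcn probe set differed by 0.09 ± 0.09 (adjusted p = 0.578 in limma over probe sets). It read 123 to 147 at 12 months and 10 to 17.6 at 7 months. Tumour array 3 had the highest value of both Lum and Dcn and array 1 the lowest. Dcn and Lum lie side by side on chromosome 10, followed by Kera and Epyc. Kera, which encodes keratocan, averaged below 16 in every group, and Epyc, which encodes epiphycan, averaged 67.3 in the tumours and 39.8 in wildtype without passing the test (adjusted p = 0.205, limma).

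Ogn encodes osteoglycin, also called mimecan, another binder of collagen fibrils. It read 6561, 6348 and 5448 in wildtype and 2855, 4588 and 3593 in the tumours. Each tumour was below each wildtype lung. Ogn fell 1.69-fold, a log2 difference of -0.75 ± 0.18 (adjusted p = 0.0424, limma). A second, dimmer Ogn probe set was 2.21-fold lower (adjusted p = 0.0251 in limma over probe sets). Its neighbours on chromosome 13, Omd and Aspn, did not pass the test, and Ecm2, next in that row, fell 1.54-fold (adjusted p = 0.0419, limma).

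Bgn encodes biglycan, the closest relative of decorin. It read 8636, 9063 and 8736 in wildtype and 7675, 8900.1 and 9317 in the tumours. The groups overlapped, and the log2 difference was -0.03 ± 0.10 with a 95% interval from -0.27 to 0.20 (adjusted p = 0.852, limma). All 3 Bgn probe sets lay between -0.06 and -0.03.

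Fmod encodes fibromodulin, which shares its collagen site with lumican. Its brightest probe set read 160, 101 and 140.0 in wildtype and 122, 305 and 444 in the tumours. Tumours 2 and 3 were above all wildtype lungs and tumour 1 was not. The log2 difference of 0.89 ± 0.44 did not pass the test (adjusted p = 0.233, limma), and without tumour array 1 it did (1.38, adjusted p = 0.0440; 0.0440 to 0.760 over its alternatives). Fmod has 6 probe sets, 5 of them of the _x_at type, which can bind related transcripts. The remaining one read lower in the tumours, at -0.80 ± 0.60, so the probe sets of this gene disagree in direction.

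**Figure D1:**
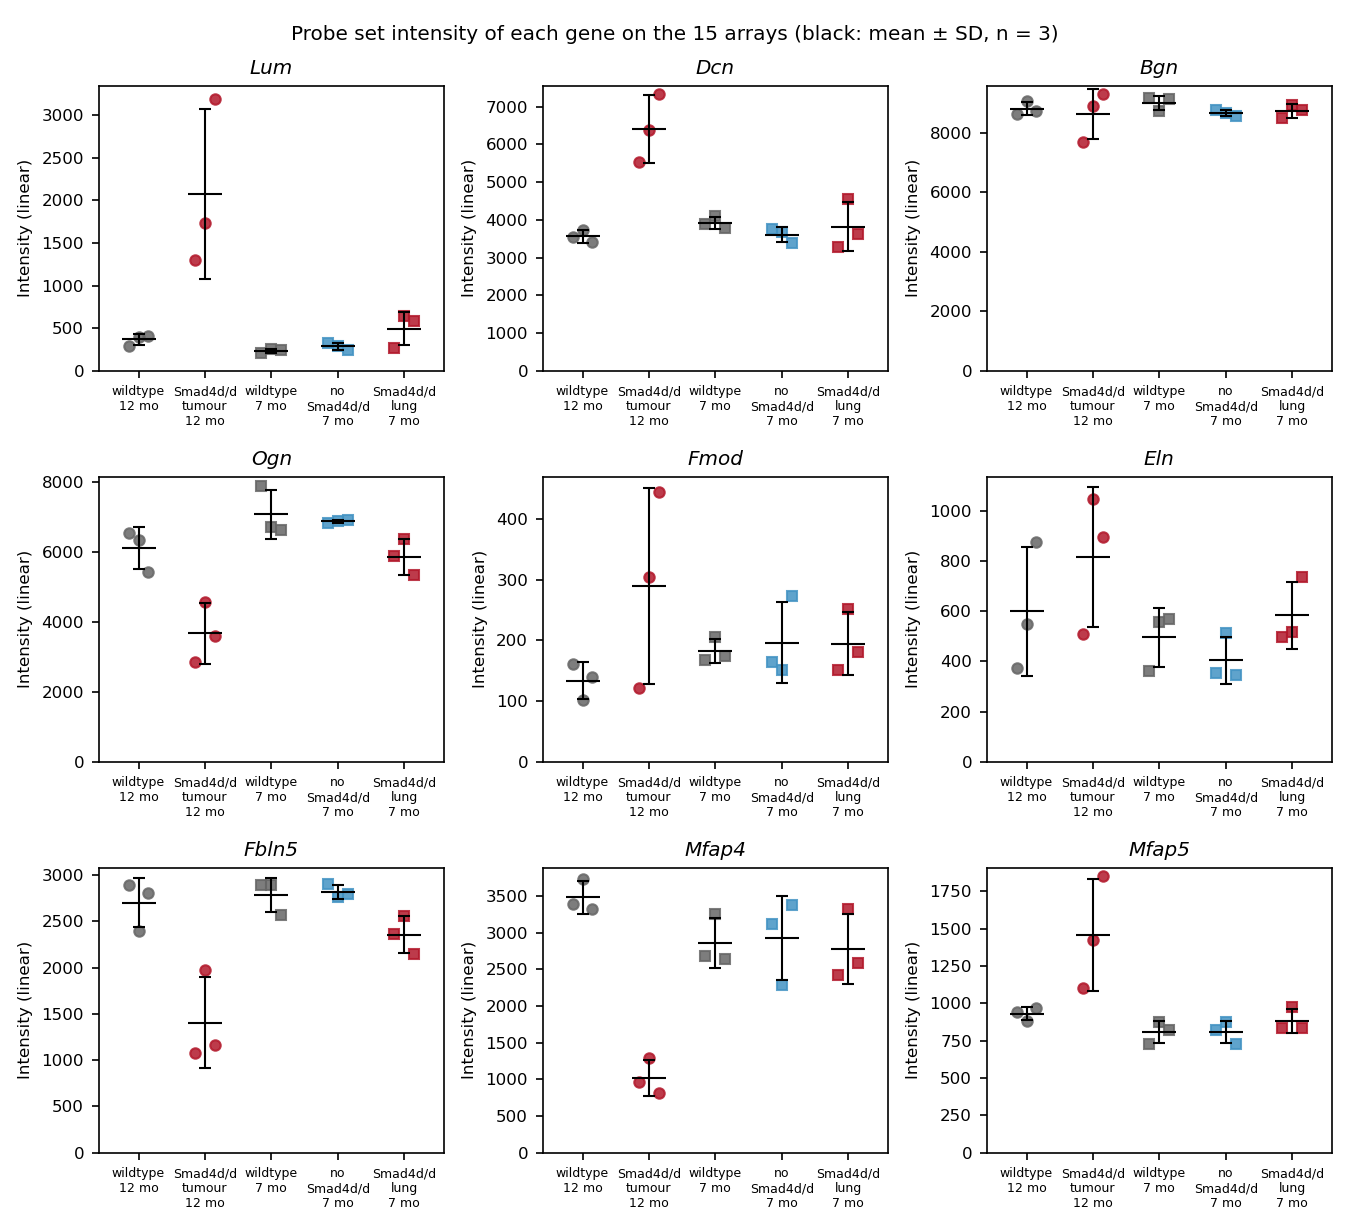
Intensity (linear scale, from 0) of the probe set used for each of the 9 genes on all 15 arrays, by group; points are arrays and the black bars are the mean ± SD (n = 3). The tumours stand above every lung array for Lum, Dcn and Mfap5 and below every lung array for Ogn, Fbln5 and Mfap4.

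Of the elastic fibre genes, Eln encodes tropoelastin, the elastic core itself. It read 373, 549 and 878 in wildtype and 508, 1048 and 897 in the tumours. The groups overlapped widely, and the log2 difference was 0.46 ± 0.38 (adjusted p = 0.473, limma). The 95% interval, -0.46 to 1.37, spans both a fall and a rise. A second Eln probe set differed by -0.06 ± 0.20.

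Fbln5 encodes fibulin 5, which links tropoelastin to microfibrils and is needed for elastic fibres to form. Its values were 2895, 2399 and 2810.1 in wildtype and 1078, 1969 and 1161 in the tumours. Tumour 2 was the closest to wildtype and still below it. Fbln5 fell 1.98-fold, from 2701 ± 265 to 1403 ± 492 (SD, n = 3), a log2 difference of -0.99 ± 0.24 (adjusted p = 0.0407, limma).

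Mfap4, a glycoprotein that binds elastin and integrins around elastic fibres, had the smallest p of the 9 genes. It read 3397, 3736 and 3321 in wildtype and 962, 1292 and 815 in the tumours, with a wide gap between the groups. Mfap4 fell 3.42-fold, from 3485 ± 221 to 1023 ± 244 (SD, n = 3), a log2 difference of -1.78 ± 0.17 (adjusted p = 0.00560, limma). Every one of the 12 lung arrays read Mfap4 above every tumour.

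Mfap5 encodes MAGP-2, a small protein of the microfibril. It read 940, 883 and 968 in wildtype and 1101, 1424 and 1851 in the tumours. The groups did not overlap, yet the log2 difference of 0.61 ± 0.19 did not pass the test (adjusted p = 0.0795, limma). It passed without tumour array 1 (0.79, adjusted p = 0.0438), with the dimmer 50% of the genes left out (adjusted p = 0.0491) and in a fit of all 15 arrays (adjusted p = 0.00926); over all its alternatives the adjusted p ranged from 0.00926 to 0.308. Its second probe set lay in the same direction, at 0.49 ± 0.24.

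The calls of Lum, Dcn and Mfap4 held when any 1 of the 6 arrays was left out, and those of Ogn and Fbln5 did so only without tumour array 2. Without each of the other 5 arrays in turn, Ogn was at -0.83 to -0.59 with an adjusted p up to 0.125, and Fbln5 at -1.07 to -0.83 with one up to 0.125. Both also lost their call with a pseudocount of 1 (adjusted p = 0.0622 and 0.0602). Against wildtype array 2 alone, which leaves 1 array in the wildtype group, the difference of Fbln5 was -0.82. With sex as a block, which leaves 1 wildtype array of the tumours' sex, no gene of the list was called and 1 of all 18193 genes was. The differences then were 2.24 for Lum (adjusted p = 0.151), 0.77 for Dcn (0.159), -0.81 for Ogn (0.243), -0.82 for Fbln5 (0.319) and -1.88 for Mfap4 (0.101). Each of these is the highest adjusted p of that gene over its alternatives; the lowest lay between 2.59e-05 for Mfap4 and 0.00182 for Ogn.

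**Figure D2:**
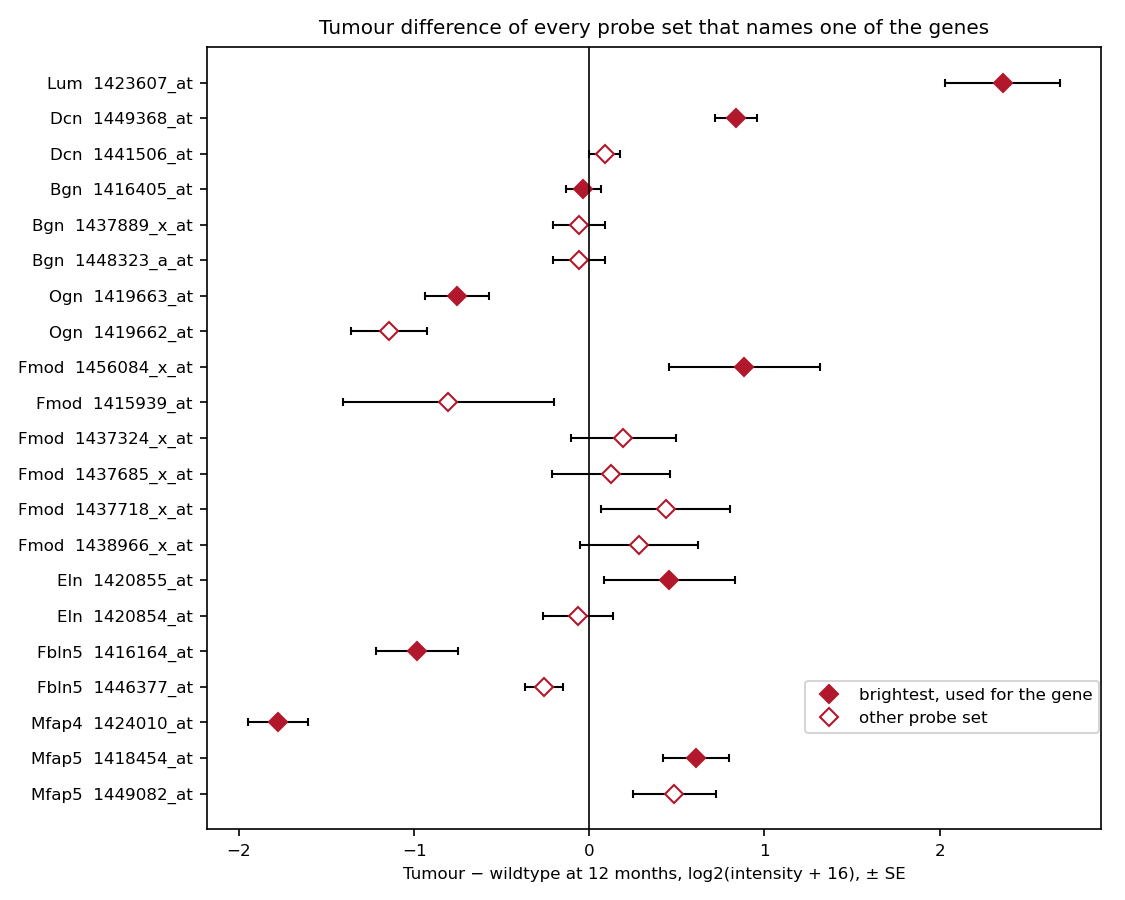
Tumour minus wildtype difference at 12 months on the log2(intensity + 16) scale, with its SE, for all 21 probe sets that name 1 of the 9 genes; filled diamonds are the brightest of each gene. The probe sets of Ogn lie on the same side of 0, and those of Fmod on both sides.

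Other genes of these families, from fixed lists, are given beside the 9.23% of all genes called higher and 6.02% called lower in the tumours, which few calls in short lists cannot be set apart from. Of 11 other small leucine-rich proteoglycans, 1 rose and 2 fell, with a median difference of 0.04 against 0.01 for all genes. Chad, which encodes chondroadherin of cartilage, rose 4.20-fold from a mean of 411 to 1746 (adjusted p = 0.00861, limma). Prelp, which encodes prolargin, an anchor between basement membrane and collagen, fell 1.93-fold from 2205 to 1155 (adjusted p = 0.0172). Ecm2 was the other that fell.

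Of 18 other elastic fibre and microfibril genes, 2 rose and 2 fell. Fbln2, which encodes fibulin 2, rose 4.37-fold from 76.5 to 403 (adjusted p = 0.00620, limma), and Fbln1, which encodes fibulin 1, rose 1.85-fold (adjusted p = 0.0495). Mfap2, which encodes MAGP-1, fell 2.06-fold from 512 to 245 (adjusted p = 0.0159), and Emilin1, found where elastin meets microfibrils, fell 1.38-fold (adjusted p = 0.0391). The fibulins that were called thus lay on both sides, Fbln5 lower and Fbln1 and Fbln2 higher. Fbln5 lost its call in 8 of 18 alternatives. Fbln1 lay close to the threshold, and its alternatives were not examined. Efemp1, a further fibulin gene, did not pass the test (-0.16, adjusted p = 0.500, limma). Lox, Loxl1, Loxl3 and Loxl4, the measured lysyl oxidase genes, did not pass the test.

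Of 15 proteases that cut elastin and their inhibitors, 1 rose and 2 fell. Timp1, an inhibitor of metalloproteinases, rose 1.87-fold (adjusted p = 0.0218, limma). Ctsk, which encodes cathepsin K, fell 3.36-fold from 6645 to 2019 (adjusted p = 0.0120), and Ctss, which encodes cathepsin S of macrophages, fell 1.26-fold (adjusted p = 0.0495). Of 26 genes that build glycosaminoglycan chains, 1 rose and 6 fell, with a median of -0.21. Chst5, a sulfotransferase, rose 1.83-fold (adjusted p = 0.0198), while Chst12 fell 1.53-fold (adjusted p = 0.0189) and Chsy3, a chondroitin synthase, fell 1.34-fold (adjusted p = 0.0217). Of 11 collagen genes of fibrils, Col5a3 rose 2.50-fold (adjusted p = 0.0215) and none fell, a share close to that of all genes, with a median of 0.77. Chad and Fbln2 lost their call only with sex as a block, while Emilin1 lost it in 10 of 18 alternatives and Ctss in 11 of 18.

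**Figure D3:**
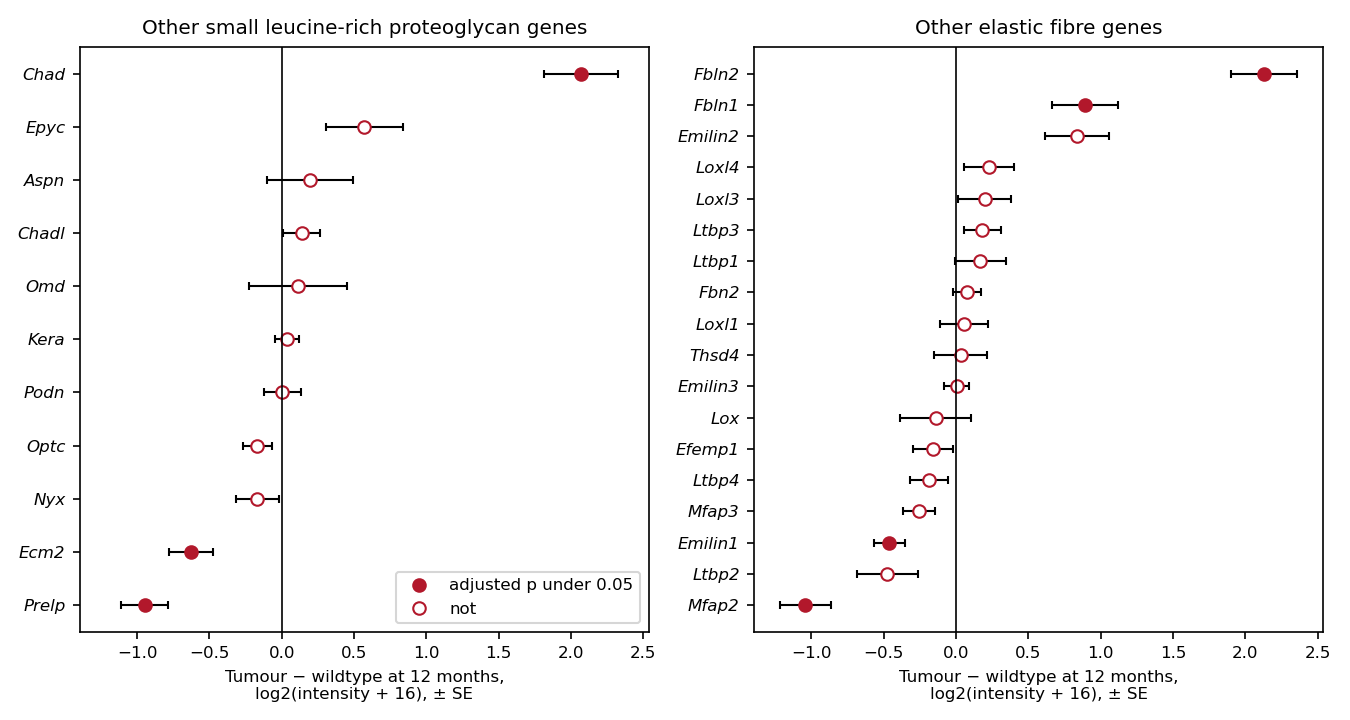
Tumour minus wildtype difference at 12 months on the log2(intensity + 16) scale, with its SE, for 11 other small leucine-rich proteoglycan genes and 18 other elastic fibre genes; filled points passed the test. Chad and Fbln2 lie farthest to the right, and Prelp and Mfap2 farthest to the left of their panels.

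Markers of several cell types differed between tumours and wildtype along with these genes. The summed intensity of 16 fibroblast markers was 30795 to 39605 in the tumours and 47825 to 50387 in wildtype, with 3 markers higher and 6 lower. That of 11 smooth muscle markers was 12908 to 17622 against 9557 to 12591, with 2 higher. That of 7 mesothelial markers was 3947 to 5812 against 2286 to 3532, with Msln (7.47-fold) and Upk1b (1.88-fold) higher and Lrrn4 lower (2.28-fold). The other 4 mesothelial markers also read lower without passing the test, and the median of the list was -0.38, so the higher sum is that of Msln and Upk1b alone. For 9 chondrocyte markers the sums were 433 to 1083 against 244 to 257, with Sox9 and Comp higher. Those of 10 endothelial markers were 9474 to 14066 against 19260.2 to 21595, with 7 lower. For 11 epithelial markers they were 58551 to 63655 against 41409 to 44171, with 9 higher. Those of 8 macrophage markers were 14701 to 23174 against 30508 to 35311, with 4 lower, and all 8 cardiac muscle markers were higher, at 32692 to 37049 against 12890 to 18647. None of 4 adipocyte markers passed the test, at 1240.2 to 2221 against 1032 to 1094. No marker was at 0 in any group. The part of cell composition in the tumour differences was not tested, and the low 18S values of the tumour arrays cannot be told apart from the group.

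At 7 months none of the 9 genes passed the test in any comparison. In lungs of the Smad4d/d genotype against wildtype, 0 of 9 genes were called by limma against 7.81% of all genes. At an unadjusted p under 0.05 there were 3 of 9, near the 23.3% of all genes at that threshold. The 3 were Lum, Ogn and Fbln5, each on the same side as in the tumours. The median size of the difference was 0.12 for the 9 genes and 0.13 for all genes.

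Lum read 210, 254 and 239 in wildtype and 268, 638 and 579 in the Smad4d/d lungs. The groups did not overlap, but array 1 of the mutants lay close to wildtype while the other 2 were far above it. The log2 difference was 0.94 ± 0.28 (adjusted p = 0.0850, limma). Without that array it was 1.32 and passed the test (adjusted p = 0.00187), and with the dimmer 50% of the genes left out it passed as well (adjusted p = 0.0435); over all its alternatives the adjusted p ranged from 0.00187 to 0.252.

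Ogn read 7901, 6737 and 6633 in wildtype and 5897, 6379 and 5349 in the Smad4d/d lungs. Every mutant value was below every wildtype value, by a log2 difference of -0.27 ± 0.09 (adjusted p = 0.115, limma). Fbln5 read 2895, 2893 and 2572 in wildtype and 2367, 2553 and 2151 in the mutants, also without overlap, at -0.24 ± 0.08 (adjusted p = 0.119). Both passed the test after median centring (adjusted p = 0.0449 for Ogn and 0.0396 for Fbln5) and with a variance trend and robust fitting (0.0413 and 0.0497). Median centring moved the median difference of all genes from 0.006 to -0.084, and with it Ogn to -0.36 and Fbln5 to -0.33. Over all alternatives the adjusted p ranged from 0.0413 to 0.342 for Ogn and from 0.0396 to 0.507 for Fbln5.

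Dcn and Mfap4, both called in the tumours, overlapped between the groups at 7 months. Dcn read 3888, 4091 and 3792 in wildtype and 3277, 4547 and 3636 in the Smad4d/d lungs, a log2 difference of -0.05 ± 0.11. Mfap4 read 2687, 3260 and 2639 in wildtype and 2429, 3320.3 and 2586 in the mutants, a log2 difference of -0.05 with a 95% interval from -0.44 to 0.34. Bgn, Fmod, Eln and Mfap5 also overlapped, with differences from -0.04 to 0.23 and an adjusted p of at least 0.537 (limma).

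In mutant lungs without Smad4d/d against wildtype, 0 of 9 genes were called by limma, against 15.2% of all genes, and 0 of 9 had an unadjusted p under 0.05, against 29.1% of all genes. The differences ran from -0.28 for Eln to 0.27 for Lum. Lum read 326, 295 and 243 in these lungs, Ogn 6847, 6889 and 6921, and Fbln5 2907, 2763 and 2790, all overlapping wildtype. Dcn, at 3765, 3682 and 3384, lay below every wildtype lung without passing the test (adjusted p = 0.553).

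Set directly against mutant lungs without Smad4d/d, the Smad4d/d lungs showed 0 of 9 genes called by limma, against 1.76% of all genes, and 3 of 9 with an unadjusted p under 0.05, against 17.9% of all genes. The 3 were Lum at 0.67 ± 0.28 (adjusted p = 0.264), Ogn at -0.23 ± 0.09 (adjusted p = 0.238) and Fbln5 at -0.26 ± 0.08 (adjusted p = 0.163). The 3 values of Ogn and Fbln5 did not overlap between the mutants, and those of Lum did. Without array 1 of the Smad4d/d lungs, Lum passed this test too (1.05, adjusted p = 0.0190; 0.0190 to 0.514 over its alternatives). The 2 comparisons of the Smad4d/d lungs share those arrays, so their agreement in sign is not independent.

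**Figure D4:**
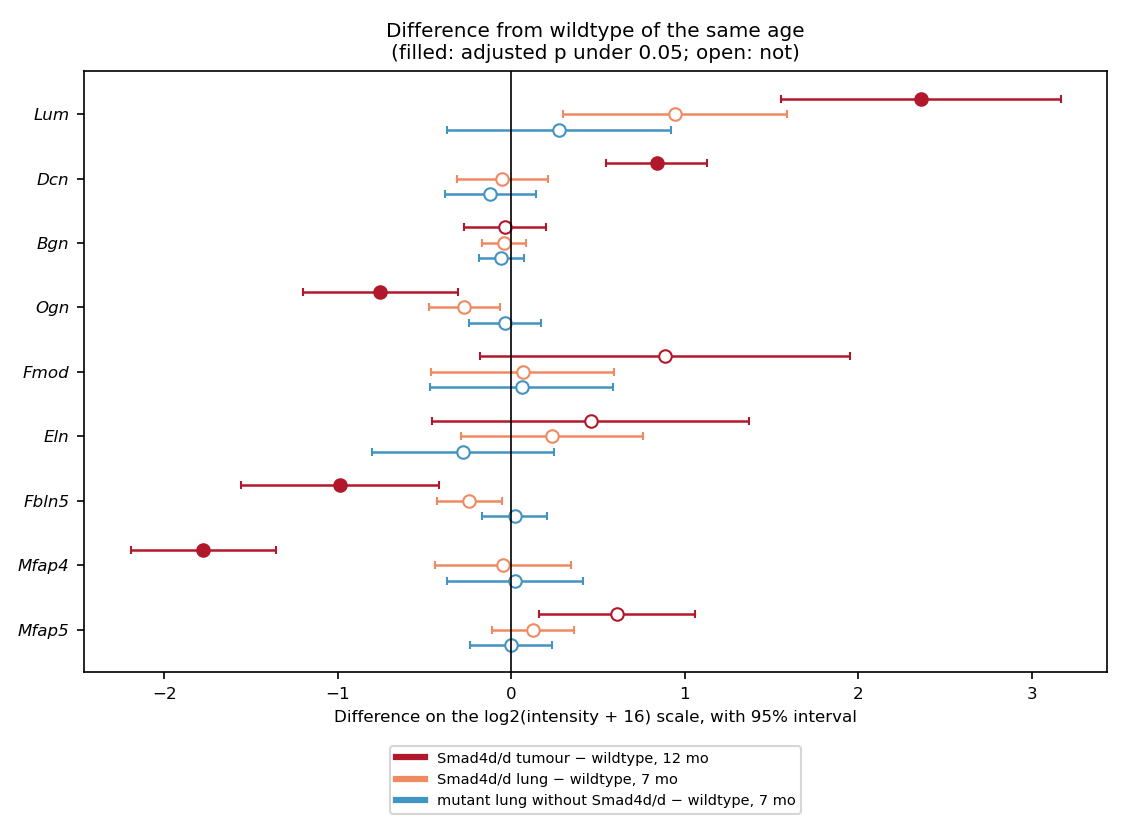
Difference from wildtype of the same age on the log2(intensity + 16) scale for each gene, with its 95% interval, in Smad4d/d tumours (12 months), Smad4d/d lungs and mutant lungs without Smad4d/d (7 months); filled points passed the test. Filled points occur in the tumour comparison alone, at Lum, Dcn, Ogn, Fbln5 and Mfap4.

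Among related genes at 7 months, Chad was higher in both mutants, 2.83-fold in Smad4d/d lungs (adjusted p = 0.00290, limma) and 2.75-fold in mutant lungs without Smad4d/d (adjusted p = 0.00250). Ltbp1 and Ltbp4, which encode proteins that hold latent TGF-beta on microfibrils, were 1.31-fold and 1.27-fold lower in Smad4d/d lungs (adjusted p = 0.00983 and 0.00799). In mutant lungs without Smad4d/d, Lox, which encodes the enzyme that cross-links elastin and collagen, fell 2.39-fold from 1728 to 715 (adjusted p = 0.00122), and Ltbp1 and Mfap2 fell 1.43-fold and 1.70-fold (adjusted p = 0.00168 and 0.00714). Lox was 1.95-fold higher in Smad4d/d lungs than in mutant lungs without it (adjusted p = 0.0230). Of the 26 genes that build glycosaminoglycan chains, 2 fell in Smad4d/d lungs and 3 in the other mutant, and 0 rose in either. Of all 18193 genes, 253 and 983 were called lower, and 7.81% and 15.2% were called in either direction. The sulfotransferase genes Chst15 and Ust were lower in both mutants, by 1.39-fold and 1.27-fold in Smad4d/d lungs and by 1.53-fold and 1.56-fold in the other mutant (adjusted p at most 0.0269), and Ust in Smad4d/d lungs lost its call in 10 of 22 alternatives.

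At 7 months, fibroblast markers summed to 51572 to 53239 in wildtype, 44563 to 48475 in Smad4d/d lungs and 48218 to 49123 in mutant lungs without it, with 0 and 2 of 16 markers called lower in the mutants. In the same order, mesothelial markers summed to 5380 to 5830.2, 4392.7 to 4923 and 3674 to 4147, with 3 of 7 called lower in each mutant. Smooth muscle markers summed to 12192 to 14751, 10416 to 12754 and 9222 to 10611, with 1 and 4 of 11 called lower in the mutants. Endothelial markers summed to 28737 to 29494, 20545 to 25097 and 24245 to 25733, with 3 of 10 called lower in each. Epithelial markers summed to 42706 to 45459, 50897 to 51171 and 46674 to 48084, with 6 of 11 called higher in each. Of all 18193 genes, 1168 were called higher and 253 lower in Smad4d/d lungs, and 1782 and 983 in the other mutant. The part of these markers in the values of the listed genes was not tested.

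The tumour difference at 12 months was set against the Smad4d/d difference at 7 months in a contrast over all 15 arrays. It called 2 of the 9 genes, against 3.17% of all genes. Dcn differed between the settings by 0.89 ± 0.17 (adjusted p = 0.0164, limma), from 0.84 in the tumours to -0.05 in the lungs. Mfap4 differed by -1.73 ± 0.26 (adjusted p = 0.00535), from -1.78 to -0.05. For Lum the contrast was 1.42 ± 0.46 (adjusted p = 0.119), for Fbln5 -0.74 ± 0.25 (0.124) and for Ogn -0.48 ± 0.20 (0.216), none of them called. Without tumour array 2, Ogn (-0.66, adjusted p = 0.0267) and Fbln5 (-1.01, adjusted p = 0.00155) were called, as was Fbln5 with array weights (adjusted p = 0.0332). Over all alternatives the adjusted p ranged from 0.0267 to 0.504 for Ogn and from 0.00155 to 0.499 for Fbln5. With sex as a block neither Dcn (0.87, adjusted p = 0.137) nor Mfap4 (-1.72, adjusted p = 0.0615) was called, at nearly the same size. Over their other alternatives both were called. Age and the step from lung to tumour cannot be told apart in this contrast.

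Arrays of 1 group also deviated together in some genes. Over 15 arrays, deviations from the group mean correlated most closely between Lum and Dcn (0.83) and between Ogn and Fbln5 (0.78). Dcn and Mfap5 (0.76) and Lum and Mfap5 (0.74) came next, and Lum and Fbln5 were at -0.09. Over the 9 arrays of 7 months these pairs read, in the same order, 0.81, 0.76, 0.71, 0.54 and 0.04. These points share array, total RNA and scaling, and are a description. Over all genes, the patterns closest to Lum across the 15 arrays were those of Aqp3 (r = 0.976), Rgs5 (0.974) and Scara3 (0.972), and those closest to Mfap4 were Lrp4 (0.934), Mamdc2 (0.932) and 2210408K08Rik (0.931). The 3 tumour arrays stand apart from the lungs in Lum and Mfap4, so these values of r mainly follow that contrast.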

How the data were processed

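Gene expression in mouse lung came from 15 Affymetrix arrays of 1 colour. Per the labels' protocols, TRIzol-extracted and RNeasy-cleaned total RNA was made into biotinylated cRNA by the 3' IVT Express protocol, which favours the 3' end of transcripts. The authors deposited linear intensities for 45101 probe sets per array. Scanner, background correction, summarization and scaling are not given in the sources used here, and 17.1% to 21.1% of values per array lie below 16.

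The platform annotation named 34958 probe sets by 1 gene, 932 by several and left 9211 unnamed here. The brightest probe set of each gene was used. Values were taken as log2(intensity + 16), which understates changes of dim genes, and compared with limma 3.58.1 in R 4.3.3 (two-sided, adjusted over 18193 genes). The 6 arrays at 12 months had their own fit, the 9 at 7 months another, and the contrast between ages used all 15. The fits were tested on simulated data. The number of arrays limits the precision.

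The genes and lists were chosen with earlier results of these data known. Every gene of the list is named in every comparison. Of each other list up to 3 called genes per comparison were eligible, by smallest adjusted p. Fbln1, Efemp1, Omd, Aspn, Kera, Epyc and the lysyl oxidase genes that were not called were named after their values were seen. The 3 genes most like Lum and Mfap4 followed the same rule. Promoter windows are RefSeq's. Alternatives covered pseudocounts, scaling, filters, probe set choice, weights, blocks and left-out arrays. Sex was read from Xist against Eif2s3y, since Ddx3y had no named probe set; this was decided after seeing the data. An allele that both mutant genotypes share is not reported here.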

Additional observations from a re-analysis of the deposited data

Results flagged for a closer look

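Dcn and Mfap4 were taken up again because their tumour difference at 12 months and their difference in Smad4d/d lungs at 7 months were not alike in a test of the difference itself. For Dcn, which encodes decorin, the contrast was 0.89 on the log2 scale (adjusted p = 0.0164, limma): its 3 tumours lay above every lung array, and its 7-month groups overlapped. For Mfap4, an elastic fibre glycoprotein, the contrast was -1.73 (adjusted p = 0.00535): its 3 tumours lay below every lung array, and its 7-month groups overlapped. Both kept their call in 24 of 25 alternative fits. The exception was sex as a block, where the contrast was 0.87 for Dcn (adjusted p = 0.137) and -1.72 for Mfap4 (adjusted p = 0.0615).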

How the results depend on the processing

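The 45 results of the listed genes had 958 alternative fits, of which 924 kept direction and side of the threshold or had no call to lose, 20 lost a call, 14 gained one and 0 reversed a call; 53 uncalled estimates changed sign. Of the 5 genes called in the tumours, 3 remained with a pseudocount of 1, where Ogn and Fbln5 lost their calls, 0 with sex as a block, and 3 to 5 when 1 array was left out. The 0 genes called in Smad4d/d lungs against wildtype became 2 with median centring, 1 without the dimmer 50% of the genes, 2 with a variance trend and robust fitting, and 0 to 1 when 1 array was left out. Against the other mutant the range was 0 to 1, and for the contrast between ages, with 2 called, it was 2 to 4, with 0 called when sex was a block. Tumour calls over all genes split into 1679 higher and 1095 lower, or 1327 and 1789 after median centring, 1458 and 1346 after quantile normalization. Those in Smad4d/d lungs split into 1168 and 253, or 916 and 1025 and 984 and 439. Same-numbered 7-month arrays did not deviate together (r from -0.13 to 0.16 over 9 pairs, 1 above 0.1), and with the replicate number as a block 0 genes of the list were called in any 7-month comparison. At 12 months the numbers are accession order and pair nothing. For the related genes and cell type markers eligible by smallest adjusted p, 330 of 1921 alternative fits lost the call and 0 reversed it. Not all of these genes are named here, and Fbln1 is not among them. Sex as a block, the fit against wildtype array 2 alone and the 7-month fit on arrays with Xist above Eif2s3y were chosen after seeing the data. Those 8 arrays of 7 months also read Eif2s3y above 500, so they are not arrays of 1 sex. In the contrast between ages, the block counts them with wildtype arrays 1 and 3 of 12 months. Values near 16, as on the dimmer probe set of Fbln5, limit what it can show.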

Other observations

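The dimmer Dcn probe set read 123 to 147 on the 6 arrays at 12 months, tumours and wildtype alike, and 10 to 17.6 on the 9 arrays at 7 months, while the brighter Dcn probe set read 3408 to 3737 in wildtype at 12 months and 3792 to 4091 in wildtype at 7 months. The dimmer Mfap5 probe set read 554 to 1168 at 12 months and 126 to 201 at 7 months. The cause was not tested.

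Of the related matrix genes, Fbln2 and Col5a3 were called in the contrast between the tumour difference at 12 months and the Smad4d/d difference at 7 months. Fbln2 differed by 1.81 on the log2 scale (adjusted p = 0.00596, limma) and Col5a3 by 1.42 (adjusted p = 0.0172). With sex as a block neither was called.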
